A study of Homo sapiens with 12 samples.

Results

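Regions of acetylated histone H3 lysine 9 (H3K9ac) that lie inside coding genes, away from either end of any coding gene, were examined in MOLM-13 cells. A region belonged to the set when it was under 5000 bp wide, lay on chromosome 1-5, 7, 9-12, 14-18 or 20-22, fell within a RefSeq coding gene body and sat over 3000 bp from both ends of every coding gene. Members were also chosen by a measured value, a mean of at least 10 CPM over the 6 libraries, where CPM is the number of reads for every 1000000 that fell in listed regions. Of 13281 internal regions 11494 were below that level and 1787 reached it, which is 3.75% of the 47648 regions in the table. Their levels are therefore given as a description. The 3 members just above the minimum lay in LIAS, LARP1 and ADAP1, at means of 10.007, 10.008 and 10.012 CPM. The 3 regions just below it lay in CMC1, IGF2BP2 and PANK2, at means of 9.995, 9.998 and 9.999 CPM.

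MOLM-13, a line from a human acute myeloid leukaemia with monocytic features, carries a fusion of KMT2A with MLLT3 and an internal tandem duplication in FLT3. One group of 3 libraries came from cells given DMSO, the solvent. The other 3 came from cells given WM-1119, an inhibitor of the lysine acetyltransferase KAT6A, at 4 µM for 4 days, and the series asks how this inhibition alters their chromatin. All groups are this 1 cell line, the 6 input libraries were not analysed here, and no label tells if the replicates of a group are separate cultures. The p-values then describe only how these samples vary, which could be technical variation.

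H3K9ac is laid down by acetyltransferases at the starts of transcribed genes and at active enhancers, and it is removed by histone deacetylases. A region inside a gene can hold an alternative promoter, from which a shorter transcript of the same gene starts, or an enhancer, which acts on a promoter at a distance. In blood cells, genes of lineage transcription factors are known for long introns with several enhancers.

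DMSO replicates 1 and 2 stood apart from the other libraries before any comparison. They held 719331 and 1298443 reads in the listed regions, against 4542316 to 12705350 in the other 4 libraries. Their estimated background was 8.05 and 7.44 CPM per kb, against 3.36 in DMSO replicate 3 and 3.71 to 4.38 in the WM-1119 libraries. At 10 CPM a region held 7.19 reads in DMSO replicate 1 and 127 in WM-1119 replicate 3, and no member was at 0 in any library. Changes with treatment are therefore also given with DMSO replicate 3 as the only control, which leaves no spread within the DMSO group.

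Annotated transcript starts divided the members. RefSeq windows of GRCh38.p14 run from 250 bases before a start to 50 bases after it. They overlapped 533 members (29.8%) at a coding start. In all 533 the start belonged to the host gene itself, which the distance rule fixed in advance. A further 51 held a non-coding start only. In 982 members (55.0%) no listed start was found, and the host of the other 221 was not matched in the table of starts. The 120 bases before a start are shown for 7 members, to set the only start-bearing member called lower with WM-1119 (WIPF1) and a non-coding start (SENCR, inside FLI1) beside 5 strongly acetylated ones. Each is from RefSeq, 5′ to 3′ on the transcript's strand, with its outermost listed start in the member taken. Capitals mark exact matches, on either strand, to the letters of 10 motifs, which are spelled out with their frequencies after the sequences.
WIPF1, chr2:174597805-174597924, minus strand: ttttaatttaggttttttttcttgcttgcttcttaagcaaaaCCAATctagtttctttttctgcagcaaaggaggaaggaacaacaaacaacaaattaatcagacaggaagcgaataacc
EPC1, chr10:32347159-32347278, minus strand: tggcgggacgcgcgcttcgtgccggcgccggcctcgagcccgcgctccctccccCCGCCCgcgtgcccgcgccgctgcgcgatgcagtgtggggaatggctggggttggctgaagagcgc
CANX, chr5:179698307-179698426, plus strand: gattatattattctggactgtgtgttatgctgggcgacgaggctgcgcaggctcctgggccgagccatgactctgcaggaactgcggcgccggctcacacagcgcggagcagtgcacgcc
LARP1, chr5:154755257-154755376, plus strand: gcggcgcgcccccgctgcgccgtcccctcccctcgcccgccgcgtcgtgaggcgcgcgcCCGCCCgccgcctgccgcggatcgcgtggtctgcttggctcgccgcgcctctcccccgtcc
KANSL1, chr17:46194051-46194170, minus strand: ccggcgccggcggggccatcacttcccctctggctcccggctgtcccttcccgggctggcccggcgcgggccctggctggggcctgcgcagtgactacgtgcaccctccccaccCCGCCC
BRWD1, chr21:39313633-39313752, minus strand: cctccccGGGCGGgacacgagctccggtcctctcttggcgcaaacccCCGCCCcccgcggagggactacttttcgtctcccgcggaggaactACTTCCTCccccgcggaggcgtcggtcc
SENCR in FLI1, chr11:128696024-128696143, minus strand: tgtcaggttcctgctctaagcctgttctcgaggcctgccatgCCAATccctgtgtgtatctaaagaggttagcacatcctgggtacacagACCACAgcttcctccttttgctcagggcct

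The WIPF1 stretch was 33.3% G and C and held 1 CG pair, and the SENCR stretch was 53.3% G and C, also with 1 CG pair. The 5 others were 62.5% to 84.2% G and C and held 10 to 25 CG pairs. A GC box (GGGCGG), the site of Sp-family factors, stood in EPC1, LARP1, KANSL1 and BRWD1, and 33.4% of the same 120-base stretches before all 28697 starts on these chromosomes held one. The NFY letters (CCAAT) stood in WIPF1 and SENCR and in 19.96% of all stretches. The SENCR stretch also held the letters of the blood factor RUNX (TGTGGT), found in 5.34% of all stretches. The letters of PU.1 (GAGGAAGT), a factor of the monocytic lineage, stood in BRWD1 and in 1.195% of all. CANX held no match to any motif searched. The TATA letters (TATAAA) stood in none of the 7 and in 5.58% of all stretches. Nor did the 7 hold the E box of MYC-family factors (CACGTG), which 3.92% of all stretches held. The letters searched for ETS (CCGGAAGT), NRF1 (GCATGCGC), YY1 (AAGATGGC) and CRE (TGACGTCA) were likewise in none of the 7, and in 2.74%, 1.69%, 0.638% and 1.25% of all stretches. No searched motif lies within another, and the letters for ETS and PU.1 have the same ending.

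Most coding starts inside members were rich in CpG, the dinucleotide that is depleted from most of the genome but kept in CpG islands. Of 694 coding-start windows within members, 515 (74.2%) had an observed to expected CpG ratio above 0.6, with a median of 0.80. This share was 90.1% of 8146 windows in regions near coding gene ends of the same level and width, and 36.4% of 8907 coding-start windows in neither class. Over the full 300-base windows, a GC box occurred in 67.0% of starts within members, 74.6% at gene ends and 38.1% in neither class. The ETS letters occurred in 5.04%, 10.1% and 1.13%, and the PU.1 letters in 5.33%, 2.48% and 2.38%. These shares are descriptions of letters, and the sets differ in base composition.

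**Figure D1:**
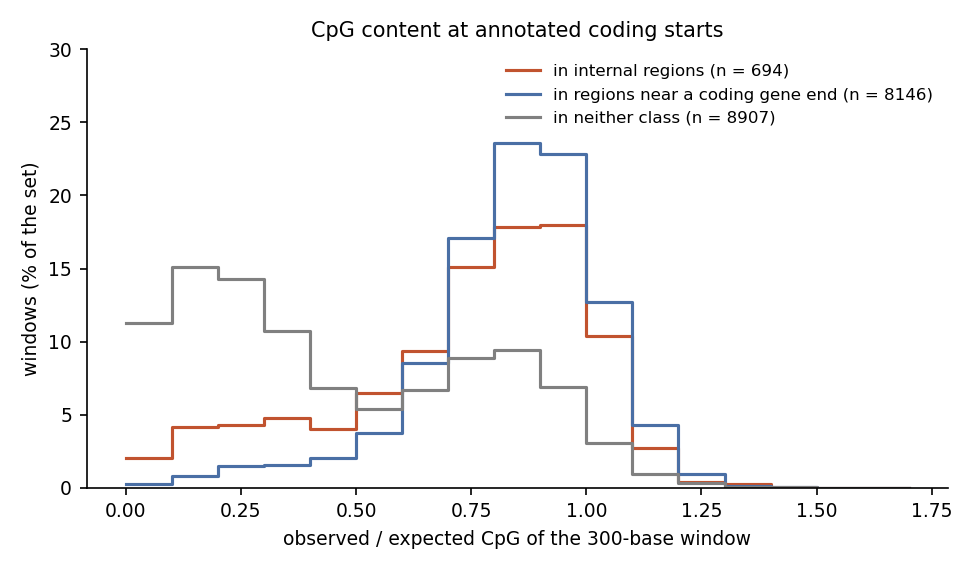
Distribution of the observed to expected CpG ratio (x axis, in steps of 0.1) over 300-base windows at annotated coding starts, as a percentage of each set (y axis). Starts within internal regions (n = 694) lie mostly above 0.6, as do starts near coding gene ends (n = 8146), while starts in neither class (n = 8907) peak at low ratios.

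Levels followed the same division. Members with a coding start had a median over-library mean of 46.7 CPM and a median width of 2034 bp. Members with no listed start had a median of 16.3 CPM and of 1482.5 bp. Per kb of width the medians were 22.8 and 11.2 CPM, against 26.6 in the 7072 regions near gene ends and 13.5 in the 1201 regions outside coding genes. Of the 105 members with a mean of at least 100 CPM, 80 held a coding start and 14 held no listed start. Divided into 5 equal parts from the host's start, the gene held 154, 159, 124, 68 and 28 start-bearing members, and 212, 261, 224, 162 and 123 members with no listed start.

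Of the 10 members with the highest means, 8 held a coding start. LARP1, which binds mRNAs of the translation machinery, had the highest mean, 272 CPM (chr5:154753567-154757784). It was followed by KANSL1, a subunit of the NSL acetyltransferase complex, at 225 CPM, EPC1, a subunit of the NuA4 acetyltransferase complex, at 211 CPM, and ARPC5L, a subunit of the actin-nucleating Arp complex, at 200.3 CPM. BRWD1, a bromodomain protein, RBPJ, the DNA-binding effector of Notch, and RNF135, a ubiquitin ligase, had means of 198, 197 and 193 CPM. TBL1XR1, a corepressor subunit, LUC7L2, a splicing factor, and CANX, the chaperone calnexin, had 188, 186 and 183 CPM. The LUC7L2 region also lies in the read-through gene FMC1-LUC7L2. ARPC5L held no listed start and the host of the RNF135 region was not matched.

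The members lay in 1307 host genes, of which 985 held 1 member, 204 held 2 and 118 held 3 or more. Host genes were long, with a median of 86.8 kb against 26.0 kb for the 15573 coding genes on these chromosomes. The rule itself favours long genes, because a member must lie inside its host and over 3000 bp from both ends. A member's median distance from the nearest gene end was 18.9 kb (quartiles 8.27 and 45.8 kb), and the largest was 408 kb. Members also came in stretches. When those up to 12.5 kb apart were joined, 49 stretches held 3 or more members, 167 members in all. Stretches of 6 members lay in AHRR (30.5 kb), the repressor of the aryl hydrocarbon receptor, and in ETV6 (26.0 kb), an ETS-family repressor needed for blood stem cells.

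With WM-1119 the members with a coding start and those without one had different library medians. For members with a coding start these were 44.5, 45.4 and 45.3 CPM in the DMSO libraries and 48.7, 47.2 and 47.8 CPM in the WM-1119 libraries. For members with no listed start they were 25.02, 20.8 and 13.9 CPM under DMSO against 14.1, 13.6 and 12.6 CPM under WM-1119. In the second class DMSO replicates 1 and 2 were high, while DMSO replicate 3 lay close to, and between, the WM-1119 values.

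**Figure D2:**
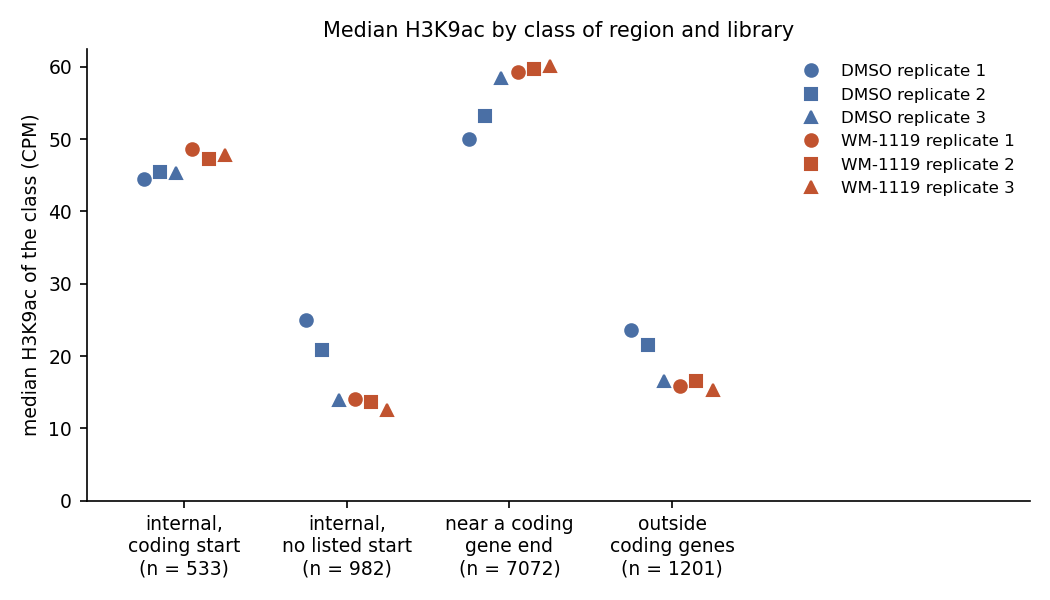
Median H3K9ac (y axis, CPM) of each class of region (x axis) in each of the 6 libraries, 1 point per library. For internal regions with no listed start DMSO replicates 1 and 2 sit at 25.02 and 20.8 CPM and the other 4 libraries between 12.6 and 14.1 CPM, and the regions outside coding genes have the same 2 libraries on top.

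The level rule used the same libraries, and it admitted members unequally. Of all members 347 had a WM-1119 mean under 10 CPM and 9 had a DMSO mean under 10 CPM, so that many passed the minimum only through the DMSO group. Among members with no listed start these numbers were 278 and 4 of 982, and among those with a coding start 10 and 1 of 533. The values below that sum up members by class are therefore descriptions, without a test.

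Per library, the median log2(CPM + 1) of members with no listed start minus that of members with a coding start was -0.81, -1.09 and -1.64 in DMSO and -1.72, -1.72 and -1.85 in WM-1119. The difference of means was -0.59, and -0.80 after subtraction of the estimated background. It was -0.33 among members at 20 to 50 CPM, and -0.13 with DMSO replicate 3 as the only control. This comparison was added after the data had been seen.

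Members minus gene-end regions was -0.83, -1.12 and -1.65 in DMSO and -1.60, -1.65 and -1.74 in WM-1119, a difference of -0.46 with overlapping groups. With background subtracted it was -0.57, and with DMSO replicate 3 alone it was -0.01. A further 786 genes held both a member and a region at a gene end. Their median log2 ratio of internal to end signal was -0.59, -0.76 and -1.14 in DMSO and -1.23, -1.21 and -1.25 in WM-1119. The difference was -0.40. It was not computed with DMSO replicate 3 as the only control, the DMSO library nearest to the WM-1119 values here. Members held 6.18% ± 0.26 (SD, n = 3) of all CPM in DMSO and 5.89% ± 0.06 in WM-1119, a difference of -0.29 percentage points that became 0.16 at a level minimum of 20 CPM. Members minus regions outside coding genes differed by 0.02 between the groups, which overlapped. The part of depth and background of DMSO replicates 1 and 2 in these differences was not tested beyond the background-subtracted values.

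Region by region, 5 members were called lower with WM-1119 and 0 higher by limma at a Benjamini-Hochberg adjusted p under 0.05. Of all 44763 regions tested, 0.0603% were called lower and 0% higher. At an unadjusted p under 0.05, 311 members were lower and 68 higher (17.4% and 3.81%), against 10.8% and 2.58% of all regions tested. The groups did not overlap for 303 lower and 106 higher members (17.0% and 5.93%), against 13.2% and 3.76% of all. Regions outside coding genes had similar shares, with 18.3% lower and 2.75% higher at an unadjusted p under 0.05. Without overlap 21.8% of these regions were lower and 4% higher, and 0.25% were called lower. The lower counts of members also carry the unequal entry through the DMSO group given above. In edgeR's quasi-likelihood test on the recovered reads of 5 libraries, 0 members were called, and 25 were lower and 32 higher at an unadjusted p under 0.05 (1.40% and 1.79%, against 3.96% and 0.782% of all). The limma calls depended on single libraries: none of the members was called when DMSO replicate 1, DMSO replicate 2, WM-1119 replicate 2 or WM-1119 replicate 3 was left out, and 714 were called (589 lower and 125 higher) when DMSO replicate 3 was left out. These are 33.0% and 6.99% of the members, against 38.5% and 5.38% of all regions tested in that fit.

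The median log2 change was -0.26 over the members and -0.47 over all regions tested, with 1233 members (69.0%) and 77.2% of all regions tested below 0. Its direction depended on the scaling and the control: it was 0.16 in edgeR, 0.52 after median centring, -0.04 after quantile normalization and -0.01 against DMSO replicate 3 alone. Members with a coding start had a median of 0.11, with 177 of 533 (33.2%) below 0, and members with no listed start had a median of -0.44, with 857 of 982 (87.3%) below 0. These signs come from the values that chose the members, with the unequal entry given above, and support no statement about either class. Against DMSO replicate 3 alone those medians were 0.04 and -0.03. The change also moved with level. Among members with no listed start the median was -0.52 at 10 to 20 CPM, -0.33 at 20 to 50 CPM, -0.01 at 50 to 100 CPM and 0.28 in the 14 above 100 CPM. Among members with a coding start it was -0.18, 0.03, 0.19 and 0.28 in the same bins.

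**Figure D3:**
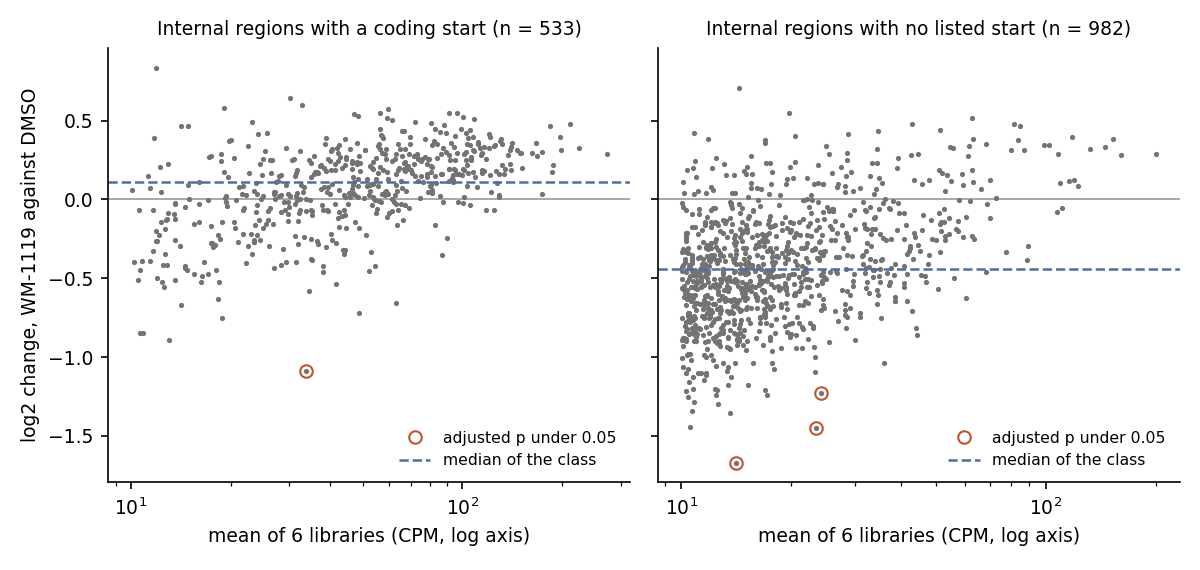
Log2 change with WM-1119 on the log2(CPM + 1) scale (y axis) against the mean of 6 libraries in CPM (x axis, log scale) for members with a coding start (left, n = 533) and with no listed start (right, n = 982), 1 point per member. Dashed lines are the class medians, 0.11 and -0.44, and circles mark members called by limma, 1 on the left and 3 on the right.

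TCF12 encodes an E protein, a basic helix-loop-helix transcription factor of blood development, and its called member had the largest log2 change. This region, chr15:56985392-56986990, lay 67302 bp from the nearest gene end with no listed start. Its level was 27.8, 18.5 and 19.9 CPM under DMSO against 7.71, 5.202 and 5.75 CPM under WM-1119. All WM-1119 libraries were below all DMSO libraries, DMSO replicate 3 included. The log2 change was -1.67 (SE 0.36; limma, Benjamini-Hochberg adjusted p = 0.032) and -1.55 against DMSO replicate 3 alone. With a WM-1119 mean of 6.22 CPM, the region reached the level minimum of 10 CPM only through the DMSO group. The other member in TCF12, chr15:57283475-57285376, had 28.8 ± 4.27 CPM in DMSO and 24.6 ± 2.56 in WM-1119 (SD, n = 3 libraries each), with overlapping groups. The region at the gene's start also overlapped between groups, at 322 ± 53.8 and 292 ± 8.23 CPM.

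TBC1D2B, a protein with a Rab GTPase-activating domain, held a called member at chr15:78048710-78051118 with no listed start. It measured 51.4, 31.6 and 22.7 CPM under DMSO against 13.2, 12.1 and 9.60 CPM under WM-1119, a log2 change of -1.45 (standard error 0.29 by limma, adjusted p = 0.011). The groups did not overlap, and DMSO replicate 3 was the lowest of its group (log2 change -0.92 against it alone). At the gene's end region the levels were 55.1 ± 9.42 CPM in DMSO and 61.0 ± 6.05 in WM-1119, which overlapped.

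CDK6, a kinase of the G1 phase of the cell cycle and a known target of KMT2A fusion proteins, held 4 members, none with a listed start. The called one, chr7:92633641-92635696, measured 48.7, 30.04 and 24.5 CPM under DMSO against 17.6, 10.4 and 13.3 CPM under WM-1119, without overlap. Its log2 change was -1.23 (standard error 0.28 by limma, adjusted p = 0.0498), and -0.81 against DMSO replicate 3 alone. The 3 others were not called, and their log2 changes were -0.62, -0.86 and -0.51. Those at -0.86 and -0.51 overlapped between groups. With WM-1119 means of 7.16 and 9.81 CPM, they reached the level minimum only through the DMSO group. The broad region at the CDK6 start, 12015 bp wide, overlapped between groups at 508 ± 134 and 550 ± 29.0 CPM.

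SNX30, a sorting nexin of endosomes, held a called member at chr9:112861372-112864222. It measured 43.1, 43.9 and 19.6 CPM under DMSO against 11.7, 15.3 and 13.8 CPM under WM-1119, a log2 change of -1.25 (standard error 0.28 by limma, adjusted p = 0.044). Against DMSO replicate 3 alone, the lowest of the DMSO libraries here, the change was -0.51. The region at the gene's end went the other way without overlap, 66.6 ± 11.5 CPM in DMSO and 85.2 ± 4.57 in WM-1119, and was not called (limma, adjusted p = 0.37).

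WIPF1, a partner of the actin regulator WASP, held the only called member with a coding start, chr2:174595312-174598268. It measured 66.7, 41.6 and 32.6 CPM under DMSO against 22.7, 21.6 and 17.8 CPM under WM-1119, without overlap. The log2 change was -1.09 (standard error 0.24 by limma, adjusted p = 0.036), and -0.64 against DMSO replicate 3 alone. A second start-bearing member of the gene, chr2:174632731-174635368, overlapped between groups at 71.6 ± 20.1 and 75.7 ± 5.94 CPM. The region at the gene's end did so at 58.0 ± 9.90 and 52.0 ± 0.88 CPM. The 2 start-bearing members thus had unlike changes within 1 gene, -1.09 and 0.12, a difference that was not tested.

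No member was called higher by limma, and the 5 with the smallest p had adjusted p-values of 0.31 each (limma, Benjamini-Hochberg). Of these, 4 held a coding start. CAST, the inhibitor of calpain proteases, measured 48.7, 50.8 and 43.3 CPM under DMSO against 80.4, 71.0 and 63.3 CPM under WM-1119 (log2 change 0.57). It was the one of the 5 whose change was larger against DMSO replicate 3 alone, 0.70. CHIC2, a membrane protein, measured 75.1, 60.8 and 102 CPM under DMSO against 125, 114 and 103 CPM under WM-1119 (log2 change 0.55). ERAP1, which trims peptides for presentation on MHC class I, measured 52.8, 76.2 and 96.4 CPM under DMSO against 97.5, 115 and 109 CPM under WM-1119 (log2 change 0.55). In both, DMSO replicate 3 nearly reached the WM-1119 libraries, and against it alone the changes were 0.16 and 0.15. CANX measured 125, 162 and 177 CPM under DMSO against 217.1, 219.6 and 199 CPM under WM-1119 (log2 change 0.47). The FLI1 region with the SENCR start, in the gene of an ETS factor of blood stem cells, measured 157, 122 and 168 CPM under DMSO against 250.3, 189 and 186 CPM under WM-1119 (log2 change 0.48). The CANX and FLI1 changes were 0.25 and 0.29 against DMSO replicate 3 alone. The groups did not overlap in any of the 5.

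**Figure D4:**
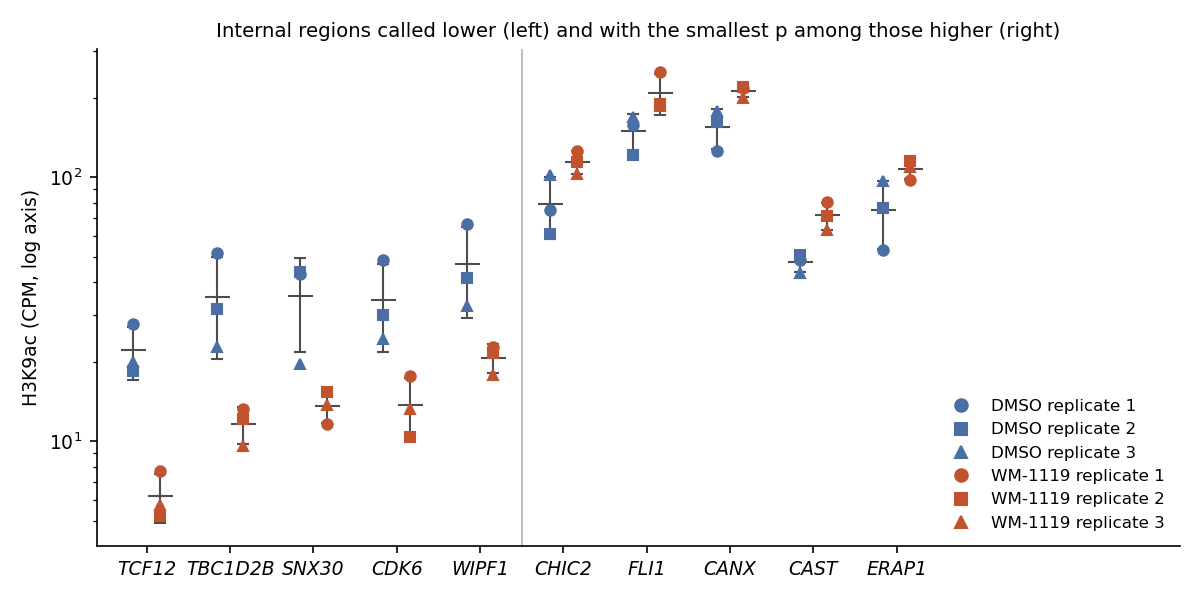
H3K9ac in CPM (y axis, log scale) of the 5 members called lower (left of the line) and the 5 with the smallest p among those higher, none of which was called (right), by host gene. Points are libraries, and the horizontal mark and bar are the mean and SD of 3 libraries. Blue and red points do not overlap in any of the 10, and DMSO replicate 3 (blue triangle) is the DMSO library nearest to WM-1119 in 8 of them, all but TCF12 and CAST.

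Gene lists chosen with earlier results of these data known were counted by host gene. Of 18 targets of KMT2A fusion proteins on these chromosomes 12 held members, 47 in all, none with a coding start. All 47 log2 changes were below 0, against 77.2% of all regions tested and 87.3% of members with no listed start. At an unadjusted p under 0.05 25 were lower (53.2%, against 10.8% of all regions and 24.8% of members with no listed start). The CDK6 region above was the 1 called (2.13%, against 0.0603% of all regions and 0.305% of members with no listed start). JMJD1C, MEF2C and MBNL1 held 14, 6 and 6 of the 47, so the members are not independent of each other. With the list chosen as stated, these shares are descriptions and give no support to an effect on the list. The list's median was -0.60, beside -0.44 for members with no listed start and -0.47 for all regions tested, and it was -0.10 against DMSO replicate 3 alone. RUNX1, a master regulator of blood stem cells, measured 33.4, 30.8 and 24.6 CPM under DMSO against 17.4, 18.9 and 12.99 CPM under WM-1119 at chr21:34907080-34909581. Its groups did not overlap (log2 change -0.82; limma, adjusted p = 0.31), and the change was -0.57 against DMSO replicate 3 alone. MEF2C, a MADS-box factor of myeloid progenitors, held 6 members with changes of -0.997 to -0.325, and none passed. The lowest of these, chr5:88818172-88820793, measured 43.1, 33.9 and 18.6 CPM under DMSO against 16.5, 13.1 and 14.3 CPM under WM-1119, and its change was -0.33 against DMSO replicate 3 alone.

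Blood transcription factors gave 49 members in 19 of 34 genes, 7 of them with a coding start. Changes were below 0 in 44 (89.8%, near the 87.3% of members with no listed start, against 77.2% of all regions tested). The TCF12 region was the 1 call among these 49 members (2.04%, against 0.28% of all members and 0.0603% of all regions tested). Their median was -0.43, and -0.26 against DMSO replicate 3 alone, where the median over all regions tested was 0.08. Cytokine receptor and kinase signalling genes gave 24 members in 11 of 32 genes, 19 of them below 0 (79.2%, near the 77.2% of all regions) and none called, with a median of -0.42 (-0.15 against DMSO replicate 3). In GAB2, an adaptor between receptors and phosphoinositide 3-kinase, chr11:78292427-78293466 measured 41.7, 18.5 and 15.4 CPM under DMSO against 9.25, 8.60 and 9.44 CPM under WM-1119, without overlap (log2 change -1.24; limma, adjusted p = 0.19). In INPP5D, the phosphatase SHIP1 that opposes that kinase, chr2:233075641-233076805 measured 22.2, 18.5 and 9.22 CPM under DMSO against 6.60, 6.60 and 6.93 CPM under WM-1119 (log2 change -1.11; limma, adjusted p = 0.32). The GAB2 and INPP5D changes were -0.70 and -0.41 against DMSO replicate 3 alone. With WM-1119 means of 9.10 and 6.71 CPM, both regions reached the level minimum only through the DMSO group.

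Chromatin regulators gave 50 members in 17 of 41 genes, with 40 below 0 (80.0%, also near that share), a median of -0.48 (-0.03 against DMSO replicate 3) and no call. AFF1, a scaffold of the super elongation complex, measured 57.0, 34.7 and 49.99 CPM under DMSO against 35.2, 23.4 and 30.2 CPM under WM-1119 at chr4:86959494-86962676, where the groups overlapped. Its log2 change was -0.64 (limma, adjusted p = 0.32) and 0.13 after median centring. Against DMSO replicate 3 alone it was -0.75.

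Members were also counted in marker genes of cell types. Over all, 1307 of the 15573 coding genes on these chromosomes held a member, so counts in lists this short do not test the label of the line. Of 21 monocyte and granulocyte markers 4 held members, 6 in all, in CD86, CSF1R, ITGAM and ITGB2. Of 19 lymphoid markers none held a member, and of 11 erythroid and megakaryocyte markers 1 did, ITGA2B at 11.8 ± 2.61 CPM in WM-1119 and a log2 change of -0.07. In CSF1R, the receptor for macrophage colony-stimulating factor, chr5:150081803-150082862 measured 20.9, 20.02 and 6.02 CPM under DMSO against 8.15, 5.10 and 4.57 CPM under WM-1119. DMSO replicate 3 lay within the WM-1119 range, and the change of -1.13 was -0.05 against that library alone. The WM-1119 mean here was 5.94 CPM, so the region reached the level minimum only through the DMSO group.

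JMJD1C, a Jumonji-domain protein and KMT2A fusion target, held more members than any other gene, 14 with no listed start in a 355 kb gene. Their means ran from 10.6 to 36.0 CPM, and their sum was 439, 343 and 226 CPM under DMSO against 211, 207 and 213 CPM under WM-1119. All 14 log2 changes were below 0, from -1.04 to -0.05 with a median of -0.62. Of members with no listed start 87.3% were below 0, and of all regions tested 77.2%. None passed the limma threshold. Some of the 14 had a WM-1119 mean under 10 CPM, down to 7.30 CPM, and so reached the level minimum only through the DMSO group. Of the 14, 6 had an unadjusted p under 0.05 (lower in 10.8% of all regions tested and 24.8% of members with no listed start). In 6 the groups did not overlap (lower in 13.2% of all regions tested and 24.7% of members with no listed start). The strongest, chr10:63427923-63431236, lay 92.3 kb from the start of the gene in a stretch of 5 members that spanned 18.4 kb. It measured 65.3, 54.7 and 28.7 CPM under DMSO against 24.7, 23.0 and 19.6 CPM under WM-1119 (log2 change -1.04; limma, adjusted p = 0.051), and its change was -0.35 against DMSO replicate 3 alone. Another member, with a mean of 33.0 CPM and 259 kb from the start, chr10:63261493-63263738, measured 37.5, 34.7 and 28.6 CPM under DMSO against 30.6, 31.0 and 35.5 CPM under WM-1119, with overlap and a change of -0.05. Against DMSO replicate 3 alone the median of the 14 was -0.08.

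**Figure D5:**
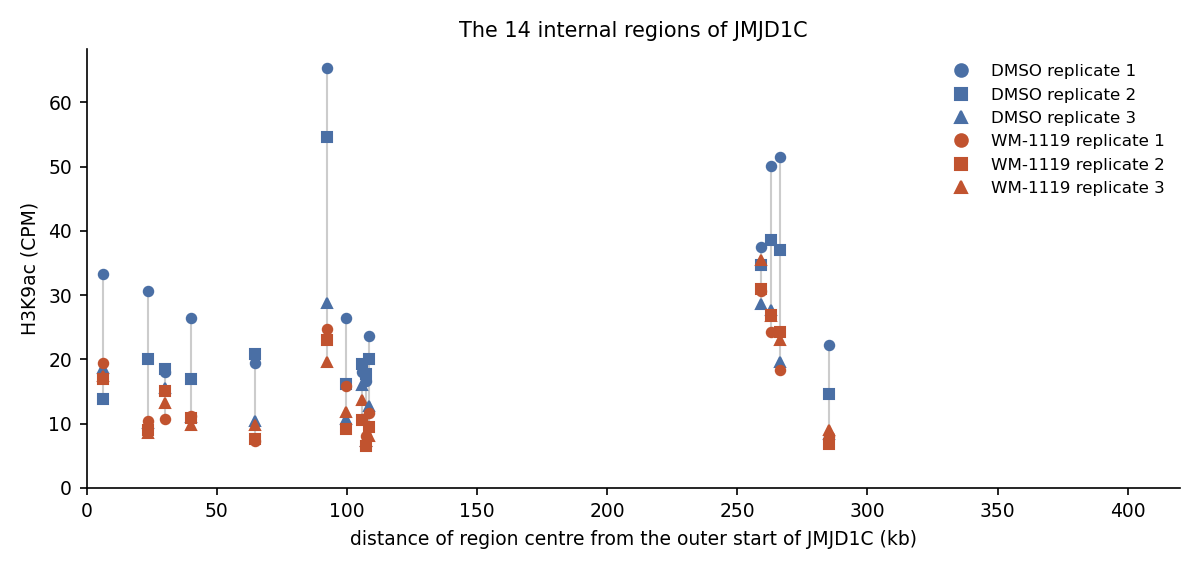
H3K9ac (y axis, CPM) of the 14 members in JMJD1C against the distance of their centres from the outer start of the gene (x axis, kb), with 1 point per library and a grey line over the range. The member at 92.3 kb spans 19.6 to 65.3 CPM, and DMSO replicates 1 and 2 are the 2 highest libraries there.

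ETV6 held 9 members, none with a listed start, and differed from JMJD1C in that DMSO replicate 3 was among the high libraries. The summed level was 348, 266 and 275 CPM under DMSO against 198, 207 and 198 CPM under WM-1119. All 9 log2 changes were below 0, from -0.80 to -0.20, with a median of -0.66, and -0.42 against DMSO replicate 3 alone. Below 0 were also 87.3% of members with no listed start and 77.2% of all regions tested. Regions chr12:11752268-11753530 and chr12:11762161-11763606 had WM-1119 means of 7.91 and 9.01 CPM, so they reached the level minimum only through the DMSO group. None of the 9 passed the limma threshold, and 5 had an unadjusted p under 0.05 (lower in 10.8% of all regions tested and 24.8% of members with no listed start). The member with the smallest p, chr12:11796809-11799663, measured 45.9, 37.0 and 34.1 CPM under DMSO against 20.03, 25.8 and 22.5 CPM under WM-1119, without overlap (log2 change -0.75; limma, adjusted p = 0.29). After median centring its change was 0.03.

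The other genes with most members were AHRR, FOXP1, ATP8B4, MBP and HDAC4 with 7 each, and MEF2C with 6. FOXP1 is a forkhead repressor, ATP8B4 a lipid flippase, MBP the gene of myelin basic protein and HDAC4 a class IIa deacetylase. In FOXP1 the summed level was 272, 291 and 273 CPM under DMSO against 199, 211 and 209 CPM under WM-1119, again with DMSO replicate 3 among the high libraries. Its median log2 change was -0.47, and -0.30 against DMSO replicate 3. In HDAC4 the sums were 197, 168 and 102 CPM under DMSO against 132, 134 and 99.96 CPM under WM-1119, where DMSO replicate 3 lay between WM-1119 libraries. The median was -0.48, and 0.38 against DMSO replicate 3 alone. In AHRR the sums overlapped, at 374, 384 and 395 CPM under DMSO against 310, 390 and 340 CPM under WM-1119. In ATP8B4 they were 297, 278 and 199 CPM against 186, 170 and 164 CPM, and in MBP 225, 165 and 120 CPM against 117, 118 and 114 CPM. In none of these 6 genes was a member called by limma.

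MicroRNA hairpins overlapped 15 members and gave 20 mature sequences in RefSeq. Shown are those in conserved families, in FOXP1, named above, and in ETS1, from the list of blood transcription factors. The seed (bases 2 to 8) is in capitals.
hsa-miR-152-3p in COPZ2, chr17:48037174-48037194, minus strand: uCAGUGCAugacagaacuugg
hsa-miR-199b-3p in DNM1, chr9:128244745-128244766, minus strand: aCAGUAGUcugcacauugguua
hsa-miR-1284 in FOXP1, chr3:71542039-71542060, minus strand: uCUAUACAgacccuggcuuuuc
hsa-miR-6090 in ETS1, chr11:128522430-128522448, plus strand: gGGGAGCGaggggcggggc

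The members around them had means of 13.6 CPM (COPZ2, miR-152), 11.2 CPM (DNM1, miR-199b), 33.3 CPM (FOXP1, miR-1284) and 20.6 CPM (ETS1, miR-6090). The strongest member with a hairpin was in MIDEAS, at 131 CPM, around miR-4505. H3K9ac over a hairpin gives no measure of the mature microRNA, which was not measured in these libraries.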

How the data were processed

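H3K9ac chromatin immunoprecipitation sequencing of 3 DMSO and 3 WM-1119 libraries was used. Bowtie2, SAMtools, MACS2 and bedtools and the build hg38 are named, without versions or roles, per the submitters' processing notes. The merging of regions and the handling of duplicate reads are not given in the sources used here. In the table the deposited values are called TPM per the file headers but are CPM: each was a whole multiple of 1 step per library whatever the width (100% of values of up to 100 reads, within 0.02 reads), and each library summed to 1000000. The planned test assumed TPM or CPM and was kept. WM-1119 replicate 2 has a step too near a round value to tell reads from rounding, so edgeR left it out.

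The members and gene lists were chosen with earlier results of these data known. One of the lists is not reported here. limma 3.58.1 in R 4.3.3, with trend and robust, took log2(CPM + 1) of the 44763 regions whose mean reached 1 CPM. Treatment was the single term, with Benjamini-Hochberg adjustment at 0.05. Log2 changes are on that scale, which understates the change of low regions. Named members were, per direction, those called or the 5 with the smallest p where fewer passed, the 10 with the highest means, the 8 hosts with most members (ties by summed CPM), up to 4 per list by p, and the 3 on each side of the level minimum. Other regions given in the same host genes, and the microRNA hosts, were chosen after their values were seen.

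Per-library values of classes were planned for exact permutation over the 6 libraries. They are given without a test, because the level rule used the same values. Background was estimated per library and chromosome from regions between 500 and 1200 bp wide, as the 10th percentile of their CPM per bp, and scaled by width. Genes and starts came from RefSeq tables of GRCh38.p14, and starts were counted from 1. edgeR 4.0.16, Python 3.11.15, pandas 2.3.3, numpy 2.4.6 and matplotlib 3.10.9 were used. The model was also tested on simulated data. No pair of replicates agreed within sampling noise (chi-square per degree of freedom at least 1.52). Alternatives were other pseudocounts (0.1 and 5), filters, normalizations, a replicate block, background subtraction, other distance and level limits, and leaving out libraries.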

Additional observations from a re-analysis of the deposited data

How the results depend on the processing

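The number of members called (5) was 55 with a replicate block, 9 with background subtracted, 3 without a filter, and 2 and 1 with pseudocounts of 0.1 and 5. Over all regions the main fit called 27 lower. Background subtraction called 51 lower and 25 higher of all regions, no filter 23 lower, and the 2 pseudocounts 21 and 19 lower. No member was called with a filter at 10 CPM, with quantile normalization, with median centring, without trend and robust, or in edgeR on 5 libraries. Leaving out 1 library gave 0 to 714, the highest without DMSO replicate 3. The causes were not tested. The replicate block called 48 members lower and 7 higher (2.69% and 0.392%), against 384 and 112 of all regions tested (0.858% and 0.25%). Same-numbered libraries correlated at 0.22, 0.05 and 0.33 in their deviations over all regions tested, and at 0.34, 0.20 and 0.46 over the members. Every library correlated best with its own number over the members, and every one except DMSO replicate 2 over all regions tested. In both groups depth rose and background fell with the replicate number. The WM-1119 libraries held 4542316, 9996201 and 12705350 reads, and the DMSO libraries 719331, 1298443 and 7481110. Pairing and this order cannot be told apart here, and neither was tested. The labels do not say what a number marks and 1 pair lay under 0.1 in the table the model was fitted on, so the fit without the block is the one reported.

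The median log2 change of members (-0.26) was 0.16 in edgeR, 0.012 at a level minimum of 20 CPM, 0.52 with median centring and -0.0057 with DMSO replicate 3 as the only control, and -0.41 to -0.13 when 1 library was left out. Members minus regions outside coding genes (0.02) became -0.020 beyond 10 kb from gene ends and -0.045 at 10 to 50 CPM, and ran from -0.0079 to 0.057 when 1 library was left out. The members' share of CPM, -0.29 percentage points, became 0.16 at a level minimum of 20 CPM and ran from -0.41 to -0.15 when 1 library was left out. The changes of the ETV6 and AFF1 members became 0.026 and 0.13 with median centring. Gaps to gene ends, within genes and between members without and with a start kept their sign in all settings run. They ran from -0.69 to -0.28, -0.55 to -0.27 and -0.81 to -0.40 when 1 library was left out. Their size did not hold, since with DMSO replicate 3 as the only control the gap to gene ends was -0.010. Between members without and with a start it was then -0.13. The gap within genes was not run in that setting. Depth limits the DMSO group: a member at 10 CPM held 7.19 reads in DMSO replicate 1, and intervals on such counts cover counting error only.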

Other observations

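Some host genes, picked here after their values were seen, had summed member levels lower in every WM-1119 library than in every DMSO library. Without a replicate block, limma called none of their members. With the block, which is not the fit reported, limma called 2 of 4 members lower in PTPN3 and 2 of 4 in AKNA. These calls rest on the values by which the genes were picked, so they give the pick no support. In each gene 1 of the 2 had a WM-1119 mean under 10 CPM, 6.95 in PTPN3 and 5.69 in AKNA. It reached the level minimum only through the DMSO group. PTPN3, a protein tyrosine phosphatase, held 4 members whose log2 changes ran from -1.21 to -0.66. The groups did not overlap in any of these 4 members (lower without overlap in 13.2% of all regions tested). Their summed level was 153, 114 and 136 CPM in the DMSO libraries and 66.9, 85.6 and 73.7 CPM in the WM-1119 libraries. The median change was -0.93, and -0.76 against DMSO replicate 3 alone. AKNA, an AT-hook protein of immune cells, held 4 members with sums of 114, 119 and 100.4 CPM in DMSO libraries and 57.9, 75.7 and 68.7 CPM in WM-1119 libraries. Only 3 of these 4 members were lower without overlap, and the AKNA log2 changes ran from -1.28 to -0.19. Its median change was -0.76, and -0.48 against DMSO replicate 3 alone.

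MBNL1, a splicing regulator and listed KMT2A fusion target, gave the opposite pattern over 6 members. The sums were 207, 192 and 90.6 CPM in DMSO libraries and 125, 90.6 and 81.1 CPM in WM-1119 libraries, so that DMSO replicate 3 matched WM-1119 replicate 2. The median change was -0.72 and became 0.18 against DMSO replicate 3 alone. The 51 members with a non-coding start only had a median change of -0.08, with 28 of them below 0.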
